A study of Arabidopsis thaliana with 36 samples.

Results

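Salt-treated roots of ga4, an Arabidopsis mutant with little active gibberellin (GA), were compared with those of the wild-type Landsberg erecta (Ler) for the size of their transcriptional response after 8 h. The members are the 12 of 36 libraries that were made from ga4 and Ler roots at 8 h. They fall into 4 groups of 3, ga4 on NaCl, ga4 under mock conditions, Ler on NaCl and Ler under mock conditions. For each gene the salt response of Ler was subtracted from that of ga4, and the result is called the difference throughout. A response is called smaller in ga4 where the difference has the opposite sign to the response of Ler, and larger where it has the same sign.

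All seedlings were 5 days old, each library held the RNA of 50 to 100 pooled seedlings from the lower 1 cm of the root, and NaCl was given at 140 mM. The labels give no further transgene or treatment, and ga4 and Ler share the Ler background. The other genotypes of the 8 h experiment were gai, which makes a GA-resistant form of the DELLA protein GAI, and della5x, in which all 5 DELLA genes are disrupted, GAI by gai-t6, RGA by rga-t2, RGL1 by rgl1-1, RGL2 by rgl2-1 and RGL3 by rgl3-4. They were used here to estimate the spread between replicates and to choose salt genes without looking at Ler or ga4.

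GA is a growth hormone that acts by removing DELLA proteins, which bind transcription factors and hold back growth. The last step of the synthesis of active GA is made by GA 3-oxidases, and GA4 is the classical name of the locus GA3OX1. Low GA therefore leaves DELLA proteins in place, and salt is known to lower GA and to raise abscisic acid (ABA), the hormone that closes stomata and induces protective proteins and suberin. Suberin is a waxy polyester laid down around endodermal cells that limits the passage of water and ions into the vascular cylinder.

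In ga4 the salt response ran in the same direction as in Ler but was smaller for genes that salt induced. Of 20355 genes tested, 2168 were called induced in ga4 (10.7% of all genes tested) and 2616 in Ler (12.9%), and 1833 were called repressed in ga4 (9.01%) and 2127 in Ler (10.4%). These calls needed an adjusted P under 0.05 in edgeR's quasi-likelihood test and a log2 fold change beyond 0.5. Both genotypes shared 1845 induced and 1388 repressed genes, and 0 genes were induced in one and repressed in the other. The genes called only in ga4 were 323 induced and 445 repressed, and those called only in Ler were 771 induced and 739 repressed.

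The test of the difference itself passed 1025 genes at an unadjusted P under 0.05. That is 5.04% of all genes, and a threshold of 0.05 lets through about 5% without any difference, so the total carries little. The direction was uneven. The difference was negative in 687 genes (3.38% of all genes) and positive in 338 (1.66%). After adjustment over all genes 0 genes passed in edgeR, where the smallest adjusted P was 0.102 and 11 genes lay under 0.2. DESeq2 passed 18 genes after adjustment, 16 of them negative, and 1035 genes at an unadjusted P under 0.05 (694 negative and 341 positive). The genes named below were chosen at the unadjusted P, so each is given with the standard error (SE) of its difference, and the adjusted P values printed are those of edgeR's quasi-likelihood test with Benjamini-Hochberg adjustment over all genes. No difference was past the adjusted threshold in that test as fitted by group. With the main residual factor described below as a covariate, and all 24 libraries kept, 9 genes passed (7 negative), CAX3, SUS3, WRKY24, LAC5, MSS1, ENODL2, PDF2.1, AT1G52200 and ENODL10. That factor was built from the spread of these same libraries, so using it lowers the spread left over and makes these adjusted P values too small. In the fit by group, the count was 1 without the Ler NaCl library 1 or the ga4 NaCl library 3. Without the 8 libraries highest on that factor it was 10.

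Among the 2616 genes induced in Ler, 426 (16.3%) were smaller in ga4 and 7 (0.268%) were larger at that P, against 3.38% and 1.66% of all genes with a negative and a positive difference. Among the 2127 repressed genes 152 (7.15%) were smaller and 17 (0.799%) were larger. The small counts moved with single libraries. The 7 became 4 without the Ler mock library 2, 11 without the Ler mock library 3 and 18 without the ga4 mock library 3. The 17 became 4 to 10 without the Ler mock library 1 or 2, any Ler NaCl library or the ga4 mock library 3, and 27 without the ga4 NaCl library 3. The 152 became 242 without the Ler NaCl library 2. Choosing genes by Ler favours genes that happened to be high there, since the same Ler libraries enter the difference. Genes were therefore also chosen by the mean response of della5x and gai, fitted without any ga4 or Ler library, which called 2700 genes induced and 2193 repressed (13.5% and 11% of 20002 genes).

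Of these 2700 induced genes 371 (13.7%) were smaller in ga4 and 14 (0.519%) were larger. Their median response was 1.02 in ga4 and 1.24 in Ler on the log2 scale, the median difference was -0.22, and 72.7% of the differences were negative. Over all genes tested the median difference was -0.01, with 51.9% negative. Of the 2193 repressed genes 101 (4.61%) were smaller and 32 (1.46%) were larger, with medians of -0.85 in ga4 and -0.94 in Ler. Here too the counts of larger responses moved, the 14 to 23 or 24 without the Ler mock library 3 or the Ler NaCl library 2 or 3 and to 36 without the ga4 mock library 3, and the 32 to 18 or 19 without the Ler mock library 1 or 2 and to 55 without the ga4 NaCl library 3. The name of a dampened response thus describes the induced genes in these data, and the repressed genes showed less of it. For repressed genes the counts also depended on how they were chosen. Of the 1833 genes repressed in ga4 60 were smaller and 87 were larger. Choosing by ga4 favours larger responses there, since the same ga4 libraries enter the difference. Of the 2422 genes repressed in the mean of ga4 and Ler, 102 were smaller and 43 were larger.

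The difference grew with the size of the response. Genes induced by 0.5 to 1 in della5x and gai had a median difference of -0.15, those induced by 1 to 2 had -0.26, those induced by 2 to 3 had -0.46 and those induced by over 3 had -0.58 on the log2 scale. The share that was smaller in ga4 was 10.3%, 16.1%, 18.3% and 14.2% in the same order. Through the origin, the response in ga4 rose by 0.873 and that in Ler by 1.013 for each log2 unit in della5x and gai. The slope was 0.853 in ga4 and 1.006 in Ler over the induced genes, and 0.933 in ga4 and 1.031 in Ler over the repressed ones. These slopes are across genes, which are not independent replicates, and carry no test.

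**Figure D1:**
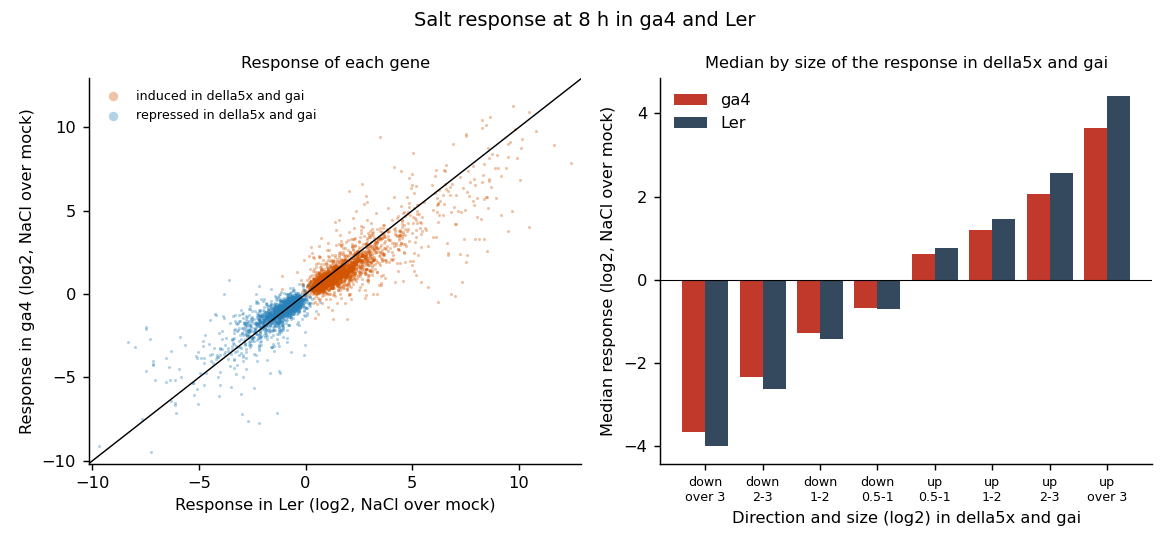
Salt responses (log2, NaCl over mock) of the genes chosen by their response in della5x and gai. Left, each point is a gene with its response in Ler on the x axis and in ga4 on the y axis, and the line marks equal responses. Right, bars give the median response in ga4 and Ler for genes grouped by direction and size in della5x and gai, and the ga4 bar is the shorter one in all 8 groups.

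In the 4 groups total counts were 17142998 to 18784688 in ga4 on NaCl, 18975471 to 19797526 in ga4 under mock conditions, 17085674 to 21403698 in Ler on NaCl and 17464450 to 18890142 in Ler under mock conditions. Log2 CPM, the counts scaled to a common library size, of replicates correlated across genes with r of 0.963 to 0.988. Library 3 of ga4 stood apart from the other libraries of its group. Relative to sampling noise its variance against libraries 1 and 2 was 24 and 24.4 times on NaCl and 24.3 and 28.9 times under mock conditions, where libraries 1 and 2 differed by 9.83 times on NaCl and by 11.1 times under mock conditions. In Ler the pairs differed by 10.6 to 14.2 times on NaCl and by 7.23 to 15.4 times under mock conditions. On the main residual factor, the first principal component of what the groups leave over, the library listed last of its group, numbered 3 here, was positive in all 8 groups of the 8 h experiment (0.07 to 0.528), and the other 16 libraries were negative (-0.335 to -0.008). This factor held 23.3% of the variance left within groups. It thus runs with the order of listing, the labels name no batch, and each group holds 1 positive and 2 negative libraries. Library 3 of ga4 on NaCl (0.347) and of ga4 under mock conditions (0.227) lay further out than the positive libraries of Ler on NaCl (0.159) and under mock conditions (0.108). The factor was taken from what the group means leave over, so as a covariate it hardly moves the difference. For CAX3 the difference was -1.02 without the covariate and -1.03 with it. The part of this factor in the difference was therefore examined only by leaving these libraries out. Without these 8 libraries 403 genes induced in Ler were smaller and 29 larger, and of the genes chosen by della5x and gai 326 were smaller and 57 larger, with a median difference of -0.19. Of the 426 genes 265 were still past the unadjusted P in that smaller fit, and all 426 kept their sign.

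The labels were checked against marker genes. Root meristem markers were counted in every group (PLT1, PLT2, BBM, WOX5 and RGF1), with a summed level of 30.1 to 42.4 CPM on NaCl and 37.7 to 42.4 CPM under mock conditions in ga4, and of 32.5 to 34.8 CPM on NaCl and 30.9 to 38.3 CPM under mock conditions in Ler. Of the 22 tested markers of meristem, root cap, phloem, lateral root and green tissue, 0 had an unadjusted P under 0.05 for the difference. The 7 green tissue markers summed to 58 to 128 CPM in ga4 on NaCl, 98.1 to 208 CPM in ga4 under mock conditions, 58.6 to 80.9 CPM in Ler on NaCl and 123 to 155 CPM in Ler under mock conditions, and the part of green tissue in the results was not tested. In such bulk samples fewer cells of a type and less RNA per cell cannot be told apart.

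The smaller response in ga4 had a mock side and a salt side. The mean log2 CPM of the 2700 induced genes was 4.03 ± 0.14 in ga4 and 4.11 ± 0.09 in Ler on NaCl, and 2.71 ± 0.08 in ga4 and 2.53 ± 0.05 in Ler under mock conditions (SD, n = 3 each). Under mock conditions the ga4 libraries, at 2.67, 2.66 and 2.80, were all above the Ler libraries, at 2.52, 2.58 and 2.48. On NaCl the ga4 libraries, at 3.95, 3.96 and 4.19, overlapped those of Ler, at 4.05, 4.07 and 4.21. The 2193 repressed genes averaged 2.93 ± 0.07 in ga4 and 2.90 ± 0.04 in Ler on NaCl, and 4.00 ± 0.02 in ga4 and 4.09 ± 0.03 in Ler under mock conditions. Relative to the mean of the mock libraries of their genotype, the induced genes had median responses of 0.95, 0.95 and 1.11 in the 3 ga4 libraries on NaCl. Those of Ler were 1.19, 1.17 and 1.31, with no overlap. The 3 values of a genotype share 1 mock mean and hold none of the spread of its mock libraries, so their order is no test.

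**Figure D2:**
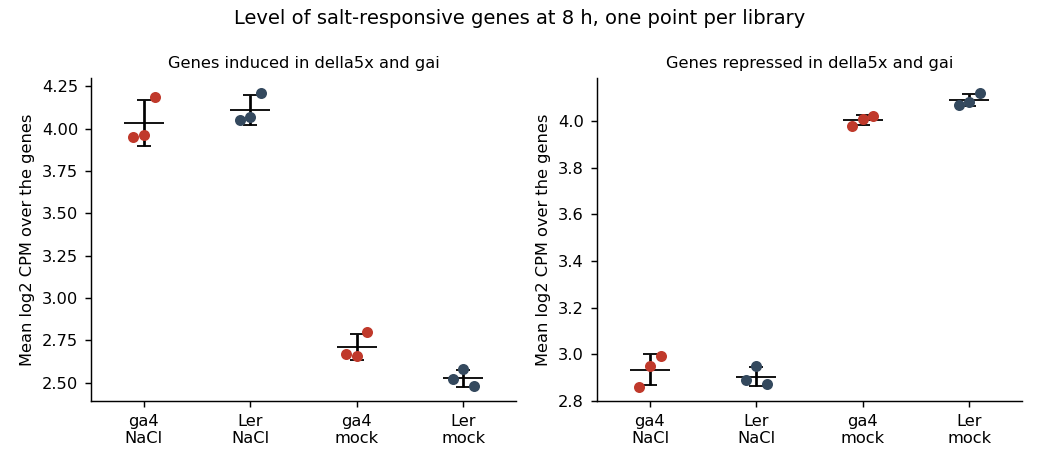
Mean log2 CPM of the genes induced (left) and repressed (right) in della5x and gai, with 1 point per library and the mean and SD of each group. The ga4 mock libraries lie above those of Ler for induced genes and below them for repressed genes, while the NaCl libraries of the genotypes overlap in both panels.

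Gene by gene the same 2 sides appeared among the 426 genes induced in Ler and smaller in ga4. Their median ratio of ga4 over Ler was 0.47 under mock conditions and -0.27 on NaCl on the log2 scale. For the 2183 other induced genes with no difference called it was 0.11 under mock conditions and -0.07 on NaCl. Of the 426 genes, 399 were higher in ga4 under mock conditions, 363 were lower on NaCl and 336 were both. The mock comparison had an unadjusted P under 0.05 for 241 of the genes that were higher, and the NaCl comparison for 154 of those that were lower. The difference is made of these comparisons, so the counts describe it and test nothing. The median response of the 426 genes was 1.78 in Ler, 0.91 in ga4, 1.09 in gai and 1.3 in della5x on the log2 scale. By sign, 408 of them responded less than Ler in gai and 370 in della5x, so a smaller response was not particular to ga4. The choice by Ler favours such an order, since the same Ler libraries enter each comparison. Salt still called 270 of the 426 genes induced in ga4, 156 were not called there, and 29 had a response of the opposite sign. In 28 of them 1 of the 4 groups held 3 counts or fewer in all, so their fitted values rest on few reads.

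For the 152 repressed genes the larger part lay on NaCl, with a median ratio of ga4 over Ler of 0.52 on NaCl and -0.21 under mock conditions on the log2 scale. In ga4 60 of these were still called repressed and 92 were not. A call at 1 h did not set the 426 genes apart, since 127 of 416 tested (30.5%) were called induced in Ler after 1 h, as were 30% of the other induced genes and 8.54% of all genes tested at that time. Repressed calls at 1 h in Ler covered 5.37% of all genes tested.

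**Figure D3:**
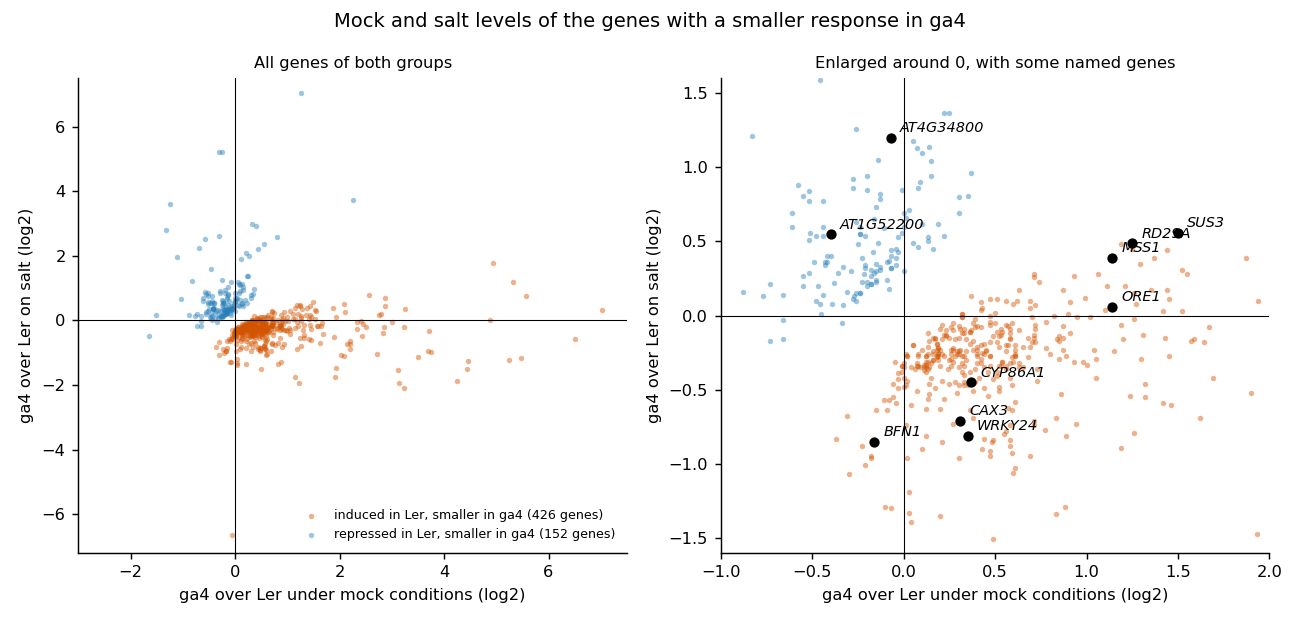
Each point is a gene whose salt response was smaller in ga4, placed by the log2 ratio of ga4 over Ler under mock conditions (x axis) and on NaCl (y axis), with all genes on the left and an enlarged view on the right. Of the 426 genes induced in Ler 399 lie right of 0 and 363 below it, and SUS3 and BFN1 mark the mock side and the salt side.

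Over the whole genome few genes differed in level after adjustment. On NaCl ga4 was called above Ler in 81 genes (0.398%) and below it in 99 (0.486%). Under mock conditions ga4 was called above Ler in 116 genes (0.570%) and below it in 77 (0.378%). These counts were as low as 29 and 40 on NaCl when 1 library was left out, without the Ler NaCl library 1 and the ga4 NaCl library 2, and as low as 33 and 38 under mock conditions, without the Ler mock library 3 and the ga4 mock library 1. Of the 426 genes, 44 were called higher in ga4 under mock conditions and 16 were called lower on NaCl.

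Ordered by P, the first induced genes whose response was smaller in ga4 were CAX3, SUS3, WRKY24, AT5G47635, GSTU5, LAC5, MSS1 and NAC075. Levels are given as TMM-normalized CPM in the 3 libraries of a group, and differences on the log2 scale with their SE. CAX3, a vacuolar exchanger of calcium and other cations for protons, had 138, 106 and 159 CPM in ga4 and 202, 211 and 246 CPM in Ler on NaCl. Under mock conditions it had 38.5, 38 and 35.3 CPM in ga4 and 28.9, 30.1 and 31.2 CPM in Ler. All ga4 libraries were thus below all Ler libraries on NaCl and above them under mock conditions. The response was 1.85 in ga4 and 2.87 in Ler, and the difference of -1.02 (SE 0.17, adjusted P = 0.102) had the lowest P of any gene.

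WRKY24, a transcription factor of the WRKY family, showed mainly the salt side. It had 58, 43.9 and 56 CPM in ga4 and 100, 72.4 and 103 CPM in Ler on NaCl, with no overlap. Under mock conditions it had 16.9, 12.8 and 12.7 CPM in ga4 and 9.31, 13.2 and 10.8 CPM in Ler, which overlapped. The difference was -1.15 (SE 0.22, adjusted P = 0.113).

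NAC075, a NAC transcription factor, had 28.8, 23.3 and 19.5 CPM in ga4 and 41.1, 39.2 and 44 CPM in Ler on NaCl. Under mock conditions it had 16.7, 14.8 and 14.6 CPM in ga4 and 10.4, 12.2 and 8.89 CPM in Ler. Its ga4 libraries were lower on NaCl and higher under mock conditions without overlap. The response was 0.63 in ga4 and 1.98 in Ler, a difference of -1.35 (SE 0.28, adjusted P = 0.144). LAC5, a laccase, had 156, 126 and 113 CPM in ga4 and 199, 188 and 189 CPM in Ler on NaCl, again with no overlap, and its difference was -1.01 (SE 0.20, adjusted P = 0.113).

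The sugar genes SUS3 and MSS1 showed the mock side. SUS3 encodes a sucrose synthase, which splits sucrose for use in sink cells, and MSS1 (AT5G26340) encodes a hexose carrier of the plasma membrane. SUS3 had 309, 344 and 335 CPM in ga4 and 178, 234 and 260 CPM in Ler on NaCl, and 77.7, 72.9 and 93.6 CPM in ga4 and 27.6, 30.5 and 28.3 CPM in Ler under mock conditions. It was therefore above Ler in every ga4 library in both conditions. The mock ratio was 1.5 (adjusted P = 3.45e-07) and the NaCl ratio 0.56 on the log2 scale, and the response was 2.02 in ga4 and 2.96 in Ler (difference -0.94, SE 0.18, adjusted P = 0.113).

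MSS1 had 188, 204 and 189 CPM in ga4 and 124, 152 and 167 CPM in Ler on NaCl, and 107, 113 and 120 CPM in ga4 and 52.9, 52.1 and 49.1 CPM in Ler under mock conditions. As with SUS3, no ga4 library overlapped its Ler counterparts, and the response was 0.77 in ga4 and 1.53 in Ler (difference -0.75, SE 0.15, adjusted P = 0.119). GSTU5, a tau-class glutathione transferase that conjugates foreign and oxidized compounds, had 126, 111 and 125 CPM in ga4 and 142, 124 and 135 CPM in Ler on NaCl, which overlapped. Under mock conditions it had 45.2, 50.8 and 46.1 CPM in ga4 and 27.5, 33.6 and 27.9 CPM in Ler, and its difference was -0.83 (SE 0.16, adjusted P = 0.113). AT5G47635, annotated as a pollen Ole e 1 and extensin family protein, had a difference of -0.87 (SE 0.17, adjusted P = 0.113), but it overlaps the counted gene AT5G47630, so its reads may be shared.

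**Figure D4:**
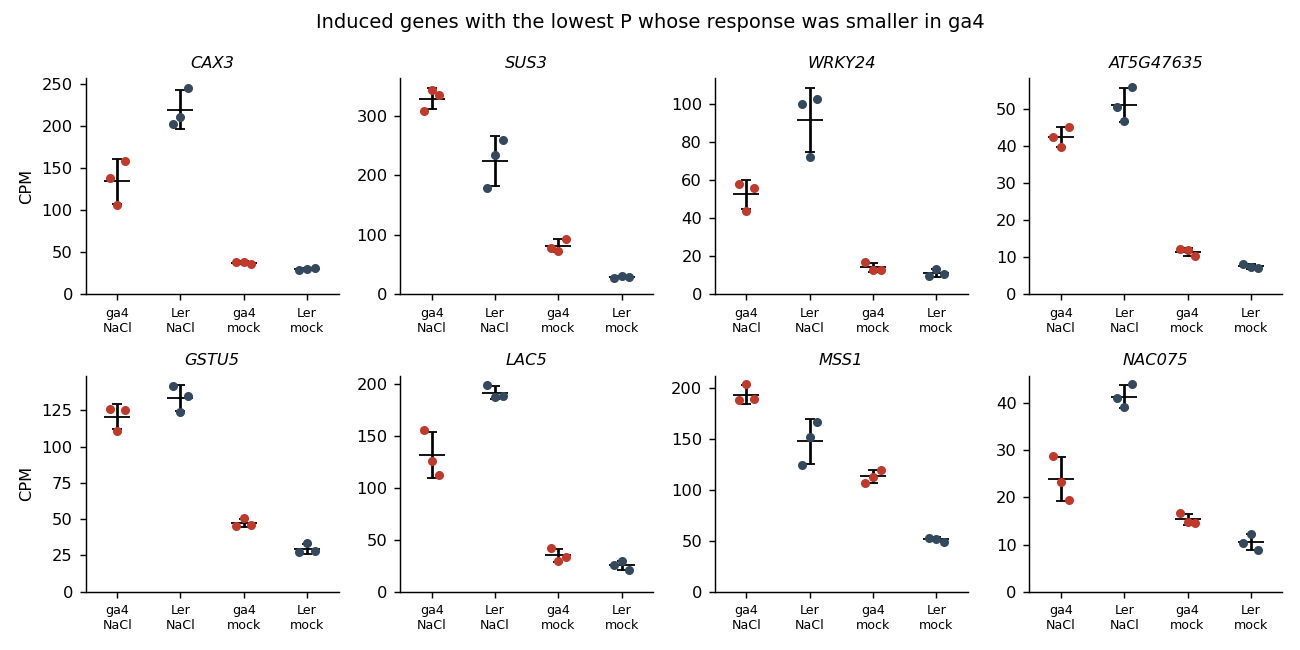
TMM-normalized CPM of the 8 induced genes that had the lowest P among those with a smaller ga4 response, with 1 point per library and the mean and SD of each group. SUS3 and MSS1 are higher in ga4 than in Ler in both conditions, whereas CAX3, WRKY24, LAC5 and NAC075 are lower in ga4 on NaCl without overlap.

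Removing each of the 12 libraries in turn left these 8 genes past the unadjusted P every time. They had been chosen for the lowest P in these same libraries, so this is no independent support. The differences ranged from -1.17 to -0.87 for CAX3 and from -1.5 to -1.23 for NAC075. Their own salt responses in gai and della5x stand beside these as values, since a difference from Ler would use the same Ler libraries. The responses of CAX3 were 2.08 and 2.42, those of SUS3 were 2.77 and 2.88, those of WRKY24 were 1.92 and 2.07 and those of NAC075 were 1.14 and 1.19.

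Genes that make suberin were induced less in ga4. Of the 25 genes for suberin and the Casparian strip, 16 were induced in Ler and 11 of these were smaller in ga4, while 0 were larger. The list is described by its counts, beside 16.3% of all induced genes, since its genes were listed with earlier results of these data known. The responses of these 11 genes were 0.75 to 2.07 in ga4 and 1.45 to 2.49 in Ler, and their differences were -0.90 to -0.39. Chosen by della5x and gai instead, 16 genes of the list were induced and 11 of them were smaller in ga4. The 11 genes were all still called induced in ga4, with a ratio of ga4 over Ler of 0.07 to 0.72 under mock conditions and of -0.45 to -0.14 on NaCl on the log2 scale. In 8 of them every ga4 library lay below every Ler library on NaCl, and in 2 every ga4 library lay above every Ler library under mock conditions. The 11 genes were chosen by the difference, which favours such an order. The share over all genes was not counted, so these counts only describe the 11.

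The 11 genes cover the making, export and control of suberin. GPAT5 and GPAT7 are glycerol-3-phosphate acyltransferases that join fatty acids to glycerol, CYP86A1 and CYP86B1 are fatty acid hydroxylases, FAR4 and FAR5 are reductases that make fatty alcohols, and KCS2 elongates fatty acids. ABCG2, ABCG6 and ABCG20 are half-size transporters needed for suberin export, and MYB93 is a transcription factor of the endodermis. CYP86A1 had 778, 624 and 578 CPM in ga4 and 1030, 797 and 871 CPM in Ler on NaCl, and 306, 235 and 221 CPM in ga4 and 198, 249 and 140 CPM in Ler under mock conditions. The ga4 libraries were the lower ones on NaCl and overlapped Ler under mock conditions (difference -0.82, SE 0.24, adjusted P = 0.588).

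GPAT5 had 180, 146 and 171 CPM in ga4 and 199, 186 and 210 CPM in Ler on NaCl, and 70, 51.7 and 47.7 CPM in ga4 and 44.9, 48.7 and 34.4 CPM in Ler under mock conditions. It was lower in every ga4 library on NaCl, with a difference of -0.67 (SE 0.18, adjusted P = 0.476). FAR5 had 373, 343 and 367 CPM in ga4 and 501, 404 and 487 CPM in Ler on NaCl, without overlap, and a difference of -0.75 (SE 0.19, adjusted P = 0.473). ABCG2 had 171, 158 and 152 CPM in ga4 and 197, 180 and 168 CPM in Ler on NaCl, and 115, 80 and 92.4 CPM in ga4 and 55.6, 73.1 and 45.1 CPM in Ler under mock conditions, so that it was higher in ga4 under mock conditions. Its difference of -0.90 (SE 0.20, adjusted P = 0.304) had the smallest P of the list, and DESeq2 gave it an adjusted P of 0.0224, although a short counted gene, AT2G37362, overlaps it on the other strand.

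The other induced members of the list were FAR1 (difference -0.32), ASFT (-0.10), the regulators MYB41 (-0.34) and MYB53 (-0.45), and MYB36 (0.30), which directs the Casparian strip, all with an unadjusted P above 0.05. The 7 members repressed in Ler were CASP1 to CASP5, ESB1 and PER64, the proteins that place and lignify the Casparian strip. Their responses were -1.02 to -0.25 in ga4 and -1.29 to -0.60 in Ler, with differences of 0.06 to 0.40 of which 0 had an unadjusted P under 0.05.

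The suberin count rested on particular libraries. It was 7 without the ga4 mock library 1, without the ga4 mock library 3 and without the ga4 NaCl library 2, up to 12 without others of the 12 libraries, and 5 without the 8 libraries highest on the residual factor. KCS1, a further fatty acid elongase that was not on the list and was noticed after its values were seen, had a difference of -0.61 (SE 0.14, adjusted P = 0.325).

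**Figure D5:**
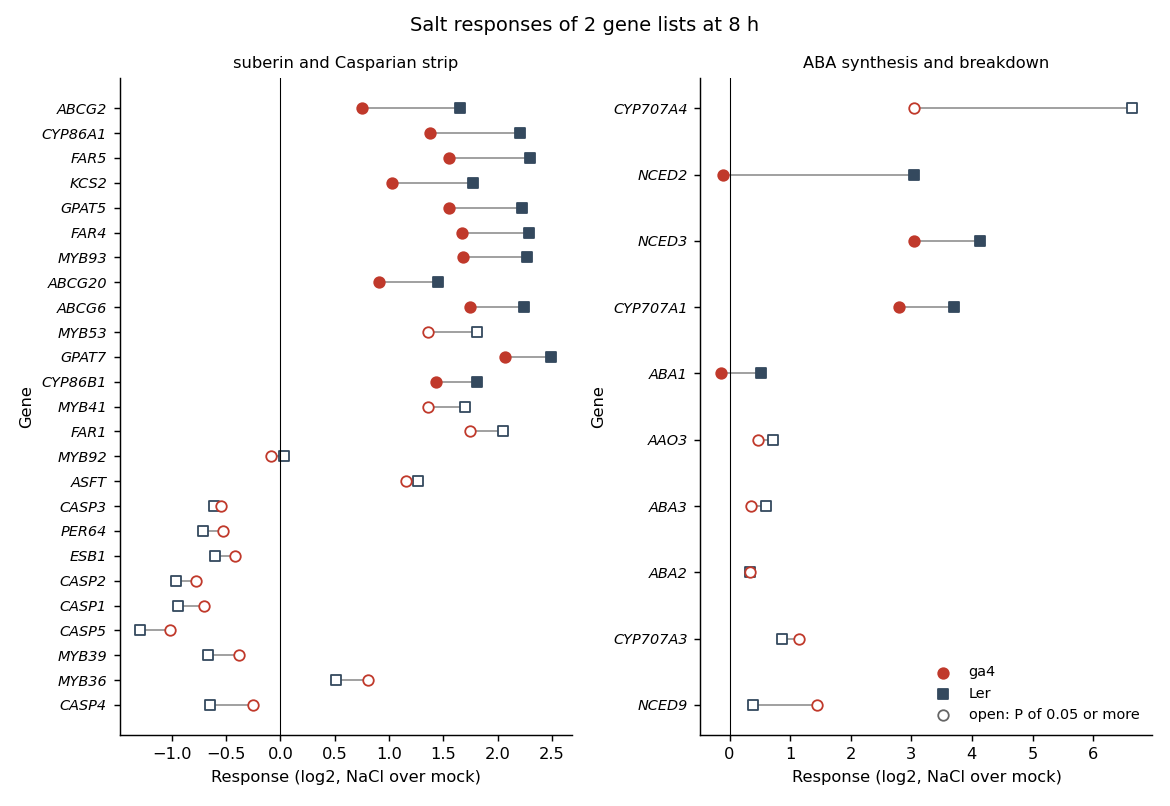
Salt responses (log2, NaCl over mock) of the tested genes for suberin and the Casparian strip (left) and for ABA synthesis and breakdown (right), with ga4 as circles and Ler as squares joined by a line. Filled symbols mark an unadjusted P of the difference under 0.05, and the 11 filled suberin genes all have the ga4 circle left of the Ler square.

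The promoters of GPAT5, ABCG2 and CYP86A1 are shown so that the letters upstream of these suberin genes can be read beside their values. Each stretch is the 150 bases before the annotated gene start in the TAIR10.1 RefSeq genome of Col-0, read 5′ to 3′ on the strand of the gene, whereas the plants were Ler. Capitals mark matches to the 7 motifs searched on both strands.
GPAT5, chr3:3595544-3595693, plus strand: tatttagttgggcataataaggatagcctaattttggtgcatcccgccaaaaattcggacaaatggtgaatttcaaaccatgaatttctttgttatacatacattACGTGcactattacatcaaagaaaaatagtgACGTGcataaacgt
ABCG2, chr2:15675921-15676070, minus strand: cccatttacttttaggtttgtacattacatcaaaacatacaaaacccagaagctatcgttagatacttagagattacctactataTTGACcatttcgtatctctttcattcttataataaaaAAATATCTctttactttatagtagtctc
CYP86A1, chr5:23768112-23768261, minus strand: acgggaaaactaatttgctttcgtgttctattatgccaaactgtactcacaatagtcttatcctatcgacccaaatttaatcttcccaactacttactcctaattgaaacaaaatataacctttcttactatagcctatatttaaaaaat
GPAT5 holds ACGTG, the core of ABA response elements, at 2 places, ABCG2 holds 1 W-box core TTGAC and 1 evening element AAATATCT, and CYP86A1 holds none of the 7 motifs in this window.

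Over the window from 250 bases before to 50 bases after the gene start, ACGTG stood in 38.0% of 424 promoters of genes induced in Ler and smaller in ga4, in 37.5% of 2178 promoters of the other induced genes and in 26.7% of all 27443 promoters. The longer ABA response element ACGTGNC stood in 17.2%, 16.5% and 10.3% of the same sets, and the G-box CACGTG, which overlaps ACGTG, in 12.7%, 13.3% and 7.68%. The dehydration element core CCGAC stood in 14.9%, 16.5% and 15%, the W-box core TTGAC in 55.0%, 54.1% and 50.5%, the GCC box GCCGCC in 2.12%, 1.93% and 2.57%, and the evening element in 6.84%, 7.58% and 5.65%. The shares in the genes that were smaller in ga4 were thus near those of the other induced genes for each motif searched, as a description without a test. Of the 11 suberin genes among them, 3 (27.3%) held ACGTG, 1 held ACGTGNC and 8 (72.7%) held TTGAC. The evening element stood in 2 of the 11, and the G-box, CCGAC and GCCGCC in 0.

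Some genes of ABA synthesis and breakdown were also induced less. Of 10 tested, 7 were induced in Ler and 4 of these (57.1%, beside 16.3% of all induced genes) were smaller in ga4. Over the tested genes the median difference was -0.45, while the median response was 0.81 in ga4 and 0.79 in Ler. The summed level of the list was 429 to 545 CPM in ga4 and 454 to 551 CPM in Ler on NaCl, which overlapped. Under mock conditions it was 162 to 178 CPM in ga4 and 133 to 143 CPM in Ler. Chosen by della5x and gai, 5 were induced and 2 were smaller. NCED3, the dioxygenase that makes the limiting step of ABA synthesis under stress, had 80.4, 81.3 and 103 CPM in ga4 and 105, 109 and 126 CPM in Ler on NaCl, and 13.1, 12.7 and 6.33 CPM in ga4 and 6.81, 8.26 and 4.19 CPM in Ler under mock conditions. It was lower in every ga4 library on NaCl and overlapped under mock conditions (difference -1.10, SE 0.34, adjusted P = 0.693).

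NCED2, a dioxygenase of the same family, had 1.5, 0.482 and 1.24 CPM in ga4 and 3.23, 3.95 and 5.14 CPM in Ler on NaCl, and 2.32, 0.451 and 0.697 CPM in ga4 and 0.416, 0.265 and 0.803 CPM in Ler under mock conditions. Salt called it induced in Ler (3.05) and not in ga4 (-0.11), at low levels (difference -3.16, SE 0.95, adjusted P = 0.658). CYP707A1, an ABA 8′-hydroxylase that breaks ABA down, had 237, 192 and 261 CPM in ga4 and 195, 166 and 239 CPM in Ler on NaCl, which overlapped. Under mock conditions it had 35, 34.2 and 30.3 CPM in ga4 and 17, 16.2 and 13 CPM in Ler, and the mock ratio of 1.11 on the log2 scale had an adjusted P of 0.00277 (difference -0.91, SE 0.25, adjusted P = 0.509). ABA1, the zeaxanthin epoxidase, had a response of -0.14 in ga4 and 0.52 in Ler (difference -0.67, SE 0.26, adjusted P = 0.911). Its difference was -0.49 without the ga4 mock library 2 and about as small without the Ler mock library 3, and missed the unadjusted threshold both times.

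In ABA signalling, 15 of 26 tested genes were induced in Ler, with 4 smaller in ga4 (26.7%, beside 16.3% of all induced genes). A further 6 were repressed, with 3 smaller, beside 7.15% of all repressed genes. The induced genes were the phosphatases ABI1 (-0.51, SE 0.16), ABI2 (-0.49, SE 0.19) and HAI1 (-0.84, SE 0.37), which restrain the pathway (a counted gene overlaps ABI1), and the transcription factor ABF2 (-0.44, SE 0.16). The repressed genes were the ABA receptors PYR1, PYL4 and PYL6. PYR1 had 41.1, 43.1 and 41.1 CPM in ga4 and 41.8, 38.4 and 39.5 CPM in Ler on NaCl, and 86.1, 82.4 and 76.3 CPM in ga4 and 99.5, 103 and 106 CPM in Ler under mock conditions. It thus differed under mock conditions, where every ga4 library was lower, and its difference was 0.40 (SE 0.13, adjusted P = 0.739).

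PYL6 had 3.23, 2.03 and 4.48 CPM in ga4 and 2.51, 0.957 and 1.79 CPM in Ler on NaCl, and 40.5, 41.5 and 43.6 CPM in ga4 and 50.7, 50.2 and 86.7 CPM in Ler under mock conditions. Its difference was 1.46 (SE 0.49, adjusted P = 0.816) and that of PYL4 was 0.62 (SE 0.21, adjusted P = 0.816). The count of induced signalling genes that were smaller ranged from 1 without the Ler NaCl library 3 to 7 without the ga4 NaCl library 3, and was 2 without the Ler mock library 3 or the ga4 NaCl library 2.

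Dehydrins, LEA and cold-regulated proteins, which protect cells under drying, were induced nearly throughout. Of 26 tested, 23 were induced in Ler, 5 of these (21.7%) were smaller in ga4, beside 16.3% of all induced genes, and 0 were larger, with a median difference of -0.48. RD29A had 1800, 1460 and 1930 CPM in ga4 and 1340, 1200 and 1150 CPM in Ler on NaCl, and 148, 119 and 83.2 CPM in ga4 and 49.1, 61.4 and 37 CPM in Ler under mock conditions. It was higher in every ga4 library in both conditions, with the wider gap under mock conditions (mock ratio 1.25, adjusted P = 0.00622, difference -0.76, SE 0.31, adjusted P = 0.927). The others were HVA22D (-0.47, SE 0.19), LTI30 (-0.59, SE 0.24), SAG21 (-0.78, SE 0.36) and LEA14 (-0.80, SE 0.35). RD29A (-0.53 without the ga4 mock library 1), HVA22D (-0.33 without the ga4 NaCl library 2), LTI30 (-0.41 without the Ler mock library 3) and LEA14 (-0.60 without the ga4 NaCl library 2) missed the unadjusted threshold when any of 4, 5, 5 and 7 of the 12 libraries was left out. The count moved widely, with 0 genes without the ga4 NaCl library 2, 1 without the Ler mock library 3, the Ler NaCl library 1 or the ga4 mock library 1, 3 without the Ler NaCl library 3 or the ga4 NaCl library 1, 3 in DESeq2, and 9 without the 8 libraries highest on the residual factor.

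Of the stress regulators of the DREB, NAC and ZAT families 3 of 17 induced genes were smaller, near the 16.3% of all induced genes. ORE1, a NAC factor of senescence, had 38.2, 32.4 and 49.1 CPM in ga4 and 36.7, 33.1 and 44.6 CPM in Ler on NaCl, and 9.88, 13.9 and 10.8 CPM in ga4 and 5.41, 5.56 and 4.64 CPM in Ler under mock conditions. The genotypes overlapped on NaCl and were apart under mock conditions (difference -1.08, SE 0.28, adjusted P = 0.473). NAP (-1.36, SE 0.54) and ATAF1 (-0.32, SE 0.14), both also NAC factors, were the others. NAP missed the unadjusted threshold without the Ler NaCl library 2 or the ga4 mock library 2 (difference -0.93), and ATAF1, which overlaps another counted gene, without any of 8 libraries (-0.25 without the Ler NaCl library 3). GolS4, a galactinol synthase that starts the making of raffinose, had a response of 5.06 in ga4 and 7.48 in Ler (difference -2.41, SE 0.81, adjusted P = 0.816), and the difference was -1.0 without the ga4 mock library 3, short of the unadjusted threshold. A counted gene overlaps GolS4. GolS3, of the same family, ran the other way at low levels, with a response of 0.34 in ga4 and -2.59 in Ler, and AT5G38710, a homologue of proline dehydrogenase named PDH2 in the annotation, had a difference of -0.62 (SE 0.29) that missed the unadjusted threshold without any of 6 libraries (-0.40 without the Ler mock library 1).

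The xylem and secondary wall list held 15 induced genes of 41, of which 3 were smaller in ga4, likewise near the 16.3% of all induced genes. BFN1, a nuclease of dying xylem cells, had 19.9, 18.1 and 20 CPM in ga4 and 31.2, 35.9 and 37.1 CPM in Ler on NaCl, and 9.13, 10.4 and 9.11 CPM in ga4 and 11.3, 10.3 and 10.3 CPM in Ler under mock conditions. It was lower in every ga4 library on NaCl (difference -0.69, SE 0.23, adjusted P = 0.808). ROPGAP3, a regulator of ROP GTPases in wall pitting, and TBL3, a wall acetyltransferase, had differences of -0.68 each (SE 0.20 and 0.28). That of TBL3 missed the unadjusted threshold without any of 3 libraries and was -0.37 without the ga4 mock library 1. VND6, a master switch of metaxylem that overlaps another counted gene, had a response of 1.52 in ga4 and 1.06 in Ler (difference 0.46, SE 0.57, adjusted P = 1), and MYB83 had 0.21 in ga4 and 1.06 in Ler (difference -0.85, SE 0.54, adjusted P = 1), and neither passed the unadjusted threshold. MYB83 passed it without the ga4 NaCl library 3 (-1.43) and without the 8 libraries highest on the residual factor (-1.49), and VND6 had a difference of 0.09 without the ga4 NaCl library 3. The count was 5 without the ga4 NaCl library 3 and 5 without the 8 libraries.

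Wall-loosening genes gave single members. Of 8 expansins induced in Ler 2 were smaller in ga4, and of 9 induced XTH genes, which cut and rejoin xyloglucan, 2 were smaller, beside 16.3% of all induced genes. EXPA1 had 221, 208 and 203 CPM in ga4 and 152, 156 and 189 CPM in Ler on NaCl, and 11.2, 12.6 and 28 CPM in ga4 and 5.77, 7.52 and 7.86 CPM in Ler under mock conditions. It was higher in every ga4 library in both conditions (mock ratio 1.29, adjusted P = 0.0137), and the difference was -0.95 (SE 0.34, adjusted P = 0.875), or -0.41 and short of the unadjusted threshold without the ga4 mock library 3. EXPA10 (-1.48, SE 0.65), XTH20 (-1.49, SE 0.62) and XTH24 (-1.02, SE 0.42) were the other smaller ones, and they missed the unadjusted threshold when any of 4, 4 and 6 libraries was left out. Their differences were then as small as -1.08 for EXPA10 without the Ler mock library 3 (and -2.56 without the Ler mock library 1), -0.92 for XTH20 without the ga4 mock library 3 and -0.72 for XTH24 without the ga4 mock library 2.

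XTH19 had a response of 1.92 in ga4 and 1.58 in Ler (difference 0.34, SE 0.18, and past the unadjusted threshold at 0.39 to 0.42 without the Ler mock library 3, the ga4 mock library 1 or the ga4 NaCl library 2), and EXPA20, which was not called in Ler (0.12) and overlaps another counted gene, had a response of 0.83 in ga4 (difference 0.71, SE 0.25). The peroxidase gene AT2G18150 had 60.3, 46.8 and 69.7 CPM in ga4 and 65.7, 53.1 and 64.7 CPM in Ler on NaCl, and 2.57, 2 and 1.18 CPM in ga4 and 0, 1.01 and 0.115 CPM in Ler under mock conditions. The genotypes overlapped on NaCl and were apart under mock conditions, where counts were few (difference -2.38, SE 0.77, adjusted P = 0.764). The AT2G18150 difference was -5.02 without the Ler mock library 2, the Ler mock library with the most reads of this gene.

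Of 25 tested genes for GA synthesis, inactivation, perception and the DELLA proteins 0 had an unadjusted P under 0.05 for the difference. SNE, an F-box gene for DELLA turnover, had a difference of -0.99, which passed that threshold with the residual factor as a covariate (-1.13), without the ga4 NaCl library 3 (-1.82) and without the 8 libraries highest on that factor (-1.68). GA3OX1, the gene mutated in ga4, had 12.7, 19.8 and 14.8 CPM in ga4 and 11.6, 9.27 and 11.7 CPM in Ler on NaCl, and 16.7, 13 and 10.9 CPM in ga4 and 8.01, 9.59 and 7 CPM in Ler under mock conditions. Its transcript was present in ga4, and it does not check the genotype, since a mutation can impair the enzyme and leave the transcript. GA20OX2, an earlier synthesis gene that GA is known to repress, had 10.9, 9.97 and 6.22 CPM in ga4 and 1.98, 4.61 and 2.41 CPM in Ler under mock conditions, with no overlap (mock ratio 1.59, adjusted P = 0.0215). GAI and RGA, 2 of the DELLA genes, had differences of 0.21 (SE 0.23) and 0.19 (SE 0.14). Among the GASA peptide genes, a family responsive to GA, AT5G59845 was the member with a smaller response (1.14 in ga4 and 2.19 in Ler, difference -1.05, SE 0.39, adjusted P = 0.899). It is named GASA10 in the annotation, and its difference was -0.69 and short of the unadjusted threshold without the ga4 mock library 1.

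Other lists held no or single members with an unadjusted P under 0.05. Heat shock genes, of which 11 were induced in Ler, had 0 such members and a median difference of -0.06. Also with 0 such members were the WRKY list (7 induced, median difference -0.12), ion and nitrate transport (9 induced and 8 repressed, -0.09) and aquaporins (10 repressed, -0.05). The same held for mitotic cell cycle genes (12 repressed, median difference 0.00) and for the jasmonate, ethylene and flavonoid lists. Iron deficiency genes, with 12 of 22 repressed in Ler, had a median difference of -0.52, a median ratio of ga4 over Ler of 0.71 under mock conditions and 0.16 on NaCl, and likewise 0 such members, or 1 member with a negative or positive difference when some libraries were left out. Their uptake genes IRT1 and FRO2 had responses of -5.47 and -6.08 in ga4 and of -4.74 and -5.23 in Ler. In the cytokinin list 9 genes were repressed in Ler and 2 of these were smaller, beside 7.15% of all repressed genes. They were the response regulators ARR6 (0.60, SE 0.25) and ARR8 (0.47, SE 0.21), and the median difference over the list was 0.43. The count was 0 without the Ler NaCl library 1 or 3, the ga4 mock library 2, the ga4 NaCl library 3 or the 8 libraries highest on the residual factor, 1 without the Ler mock library 2 or 3 and 4 without the ga4 mock library 3. A counted gene overlaps ARR6.

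Single members elsewhere were PRP1, a root hair wall protein (-1.41, SE 0.66), and the ER body genes NAI1 (0.39, SE 0.16) and BGLU24 (-1.32, SE 0.59). They missed the unadjusted threshold when any of 6, 2 and 5 libraries was left out, with differences as small as -1.07 for PRP1 without the ga4 NaCl library 3, 0.30 for NAI1 without the Ler mock library 3 and -0.92 for BGLU24 without the ga4 mock library 1. IAA5, an Aux/IAA repressor, had 0, 0 and 0 CPM in ga4 and 1.11, 0.778 and 0.0942 CPM in Ler on NaCl, and 0, 0.1 and 0 CPM in ga4 and 0.104, 0 and 0 CPM in Ler under mock conditions. No ga4 read was counted on salt, and no fold is given because nearly all values lie at a few reads. The gene passed the unadjusted threshold except without the ga4 mock library 2, and it overlaps another counted gene.

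Responses that were larger in ga4 were few. Of the induced genes AT5G17350, an uncharacterized gene, had 3.11, 3.21 and 7.29 CPM in ga4 and 2.95, 3.83 and 4.67 CPM in Ler on NaCl, and 0.403, 0.701 and 0.483 CPM in ga4 and 1.25, 1.75 and 2.47 CPM in Ler under mock conditions. The genotypes overlapped on NaCl, and ga4 was the lower one under mock conditions (difference 2.01, SE 0.60, adjusted P = 0.624). CYP71A16, a cytochrome P450, showed the same order, with a mock ratio of -1.43 (adjusted P = 0.00519), a NaCl ratio of -0.43 and a difference of 1.0 (SE 0.34, adjusted P = 0.816). AT2G41810, of the DUF642 wall protein family (0.68, SE 0.28), PME2, a pectin methylesterase (0.41, SE 0.18), and GDPD3, for which the ga4 mock libraries held no read, were the other larger ones by P. AT2G41810 (0.58 without the ga4 mock library 3), PME2 (0.29 without the same library) and GDPD3 missed the unadjusted threshold when any of 5, 4 and 8 libraries was left out.

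Among repressed genes that were smaller in ga4, AT1G52200, of the PLAC8 family, had 75, 65 and 67.1 CPM in ga4 and 43.4, 46 and 52.2 CPM in Ler on NaCl, and 112, 107 and 124 CPM in ga4 and 147, 133 and 171 CPM in Ler under mock conditions. The genotypes did not overlap in either condition (difference 0.94, SE 0.20, adjusted P = 0.198), though the counted gene AT1G52191 overlaps it on the same strand. AT4G34800, a SAUR gene of the auxin response, had 5.08, 3.21 and 5.51 CPM in ga4 and 2.06, 1.85 and 2.07 CPM in Ler on NaCl, with overlap under mock conditions (difference 1.27, SE 0.29, adjusted P = 0.325). AT3G19400, a cysteine proteinase, CLV2, a receptor-like protein of the CLAVATA pathway, OFP15 and the PPR gene AT3G11460 had differences of 1.04 to 2.05. The repressed genes that were larger in ga4 included AT4G11230, with 3.17, 2.19 and 2.43 CPM in ga4 and 7.08, 6.76 and 5.61 CPM in Ler on NaCl and a difference of -1.06 (SE 0.31, adjusted P = 0.561). GLP5, AT4G01390 and AT4G22214 were the others, and no read of AT4G22214 was counted in ga4 on NaCl. GLP5 missed the unadjusted threshold without the Ler mock library 1 or the ga4 mock library 3 (difference -0.29), AT4G22214 without the Ler NaCl library 2, and AT4G01390, which overlaps another counted gene, without any of 4 libraries (-0.47 without the ga4 mock library 3).

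Some genes were called in ga4 and not in Ler. ENODL10, an early nodulin-like protein, had 5.74, 6.85 and 5.07 CPM in ga4 and 1.78, 3.17 and 3.82 CPM in Ler on NaCl, and 0.303, 0.801 and 0.59 CPM in ga4 and 1.72, 1.64 and 2.01 CPM in Ler under mock conditions. It was lower in ga4 under mock conditions and higher on NaCl without overlap, and the difference was 2.66 (SE 0.46, adjusted P = 0.102). PHT1;8, a phosphate transporter, had 0.359, 0.268 and 0.216 CPM in ga4 and 3.12, 3.71 and 3.16 CPM in Ler on NaCl, and 4.39, 2.5 and 2.73 CPM in ga4 and 2.96, 6.62 and 6.36 CPM in Ler under mock conditions. It overlapped under mock conditions and was lower in every ga4 library on NaCl (difference -2.82, SE 0.54, adjusted P = 0.113). The others named by the same rule were AT1G52920, AT2G25950 and AT1G68030 among the induced, each overlapping another counted gene, and AT2G42750 and AT5G52950 among the repressed, with differences of -0.74 and -0.84.

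A further set was chosen with its values in view, because it passed the adjusted threshold in DESeq2 or with the residual factor as a covariate. ASN1, an asparagine synthetase that is induced by sugar starvation and overlaps another counted gene, had 5.92, 9.1 and 16.6 CPM in ga4 and 21.9, 71.4 and 41.7 CPM in Ler on NaCl, and 4.59, 18.6 and 0.751 CPM in ga4 and 1.35, 0.371 and 0.803 CPM in Ler under mock conditions. The genotypes did not overlap on NaCl and overlapped under mock conditions, where the ga4 libraries spread widely (difference -5.32, SE 1.18, adjusted P = 0.304). NAC047, a NAC factor, had 53.3, 44.4 and 56.7 CPM in ga4 and 52.7, 53.8 and 67.8 CPM in Ler on NaCl, and 14.1, 13.2 and 12.8 CPM in ga4 and 5.72, 4.34 and 2.69 CPM in Ler under mock conditions (difference -1.82, SE 0.43, adjusted P = 0.364). PDF2.1, a plant defensin, was higher in ga4 under mock conditions (mock ratio 2.87, adjusted P = 1.6e-04), with a response of 0.40 in ga4 and 2.57 in Ler.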

How the data were processed

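Counts per gene for 28775 genes in 36 libraries were deposited by the authors, who trimmed reads with fastp, mapped them to TAIR10 with Hisat2 and counted them with HTSeq-Count. The counts are not normalized. HISAT2 and HTSeq are also named in the submitters' processing notes, and strandedness is not given in the sources used here, so reads of overlapping genes cannot be told apart. Libraries came from an NEBNext Ultra kit, and GEO labels set the groups. The methods call the libraries of a group biological replicates, and P values measure the spread between these samples. Replicate pairs differed by 7.23 to 28.9 times the sampling noise, so none was merged.

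All 24 libraries of 8 h entered 1 fit of edgeR 4.0.16 (R 4.3.3, limma 3.58.1) with 1 coefficient per group, TMM scaling and filterByExpr (minimum count 10, minimum total 15), tested with glmQLFTest and adjusted by Benjamini-Hochberg over all genes. Pooling 4 genotypes shares 1 estimate of spread per gene. Log2 CPM used a prior count of 2. della5x and gai, with 12 libraries, were fitted alone to choose salt genes. Calls at 1 h came from the libraries of that time. Members, gene lists and tests were chosen with earlier results of these data known. Named genes were, by P of the difference, 8 smaller and 5 larger among genes induced in Ler, 6 and 4 among repressed genes, 4 induced and 3 repressed in ga4 alone, up to 4 per list, and GA and xylem genes. ABI2, HAI1, ABF2, SAG21, IRT1, FRO2 and the suberin genes beyond 4 are named beyond this rule, with their values known, as are KCS1, GolS3, ENODL2, ASN1, NAC047 and PDF2.1. In simulated data for this comparison (20213 genes) the test passed 85 of 100 genes changed by 1 and 97 of 100 changed by 2 (log2) at an unadjusted P under 0.05, and 39 and 86 after adjustment. The changed genes had a mean over 1 CPM, and counts were drawn independently for each library, without the shared residual factor. These rates therefore do not cover genes at lower levels or the effect of that factor. Symbols and promoters come from RefSeq TAIR10.1, where 28009 genes were found. The alternatives were RLE size factors, no filter beyond 1 count, DESeq2 1.42.0, only the 12 ga4 and Ler libraries, the residual factor as a covariate and each of these 12 libraries left out. A fit without 8 libraries was added after seeing the data.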

Additional observations from a re-analysis of the deposited data

Results flagged for a closer look

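Of 103 named genes, 4 moved in opposite directions in the genotypes, with each ga4 NaCl library above each ga4 mock library and each Ler NaCl library below each Ler mock library. CLV2 had a response of 0.29 in ga4 and -0.75 in Ler (difference 1.05), and OFP15 had 0.65 in ga4 and -1.40 in Ler (difference 2.05). AT3G11460 had 0.50 in ga4 and -1.02 in Ler (difference 1.52), and AT1G52920, named GPCR in the annotation and overlapping another counted gene, had 2.3 in ga4 and -1.56 in Ler (difference 3.86). The interaction test in edgeR gave them adjusted P values of 0.473 to 0.534, so the difference was not past the adjusted threshold for any of these genes, and all 4 had been chosen by the P of this difference. Genes with such opposite moves were not counted over all genes tested, so 4 of 103 has no share to stand beside.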

How the results depend on the processing

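No paired analysis was possible because the labels give no replicate numbers. Across 18 alternatives, 44 of the 75 named genes past the unadjusted P stayed past it in every one, 31 lost it in at least one and 0 changed direction. Of the 28 named genes not past it, 3 were past it in some. The cause of the following changes was not tested.

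DESeq2 called 18 genes at the adjusted P of the difference (16 negative), 150 genes above and 216 below Ler on NaCl, and 199 above and 138 below Ler under mock conditions. With the residual factor as a covariate the adjusted count was 9 (7 negative), the levels differed in 205 genes above and 248 below on NaCl and in 222 above and 159 below under mock conditions, 16 genes induced in Ler were larger, 230 repressed were smaller and 26 larger, and of the genes chosen by della5x and gai 32 induced were larger and 154 repressed were smaller. Without the 8 libraries highest on that factor the adjusted count was 10 (9 negative), 171 genes were above and 264 below on NaCl and 163 below under mock conditions, 29 induced and 45 repressed genes were larger, and 57 and 79 of those chosen by della5x and gai were larger. With only the 12 ga4 and Ler libraries 13 induced and 9 repressed genes were larger. The slope of Ler was 0.963 without the 8 libraries and 0.96 without the filter. The counts with the covariate rest on a spread lowered by a factor taken from these same libraries.

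Leaving out 1 of the 12 libraries gave 0 to 1 genes at the adjusted P (0 to 1 negative), 523 to 813 negative and 302 to 481 positive differences at the unadjusted P, 307 to 449 induced genes that were smaller and 4 to 18 that were larger, and 132 to 242 repressed genes that were smaller and 4 to 27 that were larger. Of genes chosen by della5x and gai 12 to 36 induced and 18 to 55 repressed ones were larger. On NaCl 29 to 85 genes were called above and 40 to 113 below Ler, and under mock conditions 33 to 112 above and 38 to 83 below. Depth limits genes at a few reads, where 3 counts or fewer stood in a group.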
